A study of Rattus norvegicus with 4 samples.

Results

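The immunoglobulin neural adhesion genes of the L1, NCAM and contactin families were examined in cultured rat cortical neurons that carried an shRNA against PHF6. The set held 10 genes, L1cam, Nrcam, Nfasc, Chl1, Ncam1, Ncam2, Cntn1, Cntn2, Cntn4 and the contactin partner Cntnap2, and its members were chosen by family and not by their values. Of these, 9 had a probe set annotated to that gene alone, each with exactly 1, among 17245 named genes on the array. Chl1 was not analysed here.

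The cells were primary cortical neurons of Sprague Dawley rats at embryonic day 18, wild type apart from the virus they received. Every culture received pLL3.7 lentivirus, which can bring a short hairpin RNA (shRNA) also into cells that no longer divide, and RNA was taken 5 days later. The control group of 2 arrays had virus with control shRNA, and the other 2 arrays had virus with PHF6shRNA-2, directed at PHF6, a nuclear zinc-finger protein whose gene is mutated in a form of X-linked intellectual disability. Only that 1 hairpin was used, so an effect of PHF6 loss and another effect of the hairpin cannot be told apart. The genotype field of the labels calls the second group a knockdown, while the source field writes KO. The titles call the arrays biological duplicates without naming separate cultures or animals, so p-values measure only the spread between these arrays, which may be technical.

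These proteins sit on the surface of axons and growth cones. L1 family proteins and NCAMs bind the same or related molecules on neighbouring cells through immunoglobulin and fibronectin domains, and on their inner side the L1 family binds ankyrin, which ties them to the spectrin skeleton and gathers them at the axon initial segment and the node of Ranvier. Contactins have no part inside the cell, since they are held in the membrane by a lipid anchor, and they act together with L1 family proteins, receptor phosphatases and the contactin-associated proteins. In developing cortex the group is known for axon growth, bundling and guidance, and NCAM carries polysialic acid, a sugar chain that loosens adhesion.

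Signals are probe set intensities on a linear scale and differences are log2 values, PHF6 shRNA minus control shRNA. The median intensity of an array ran from 40.9 to 41.7. As a background level for each array the 95th percentile of the 1272 genes for olfactory or vomeronasal receptors was taken, and it lay between 34.7 and 43.7 intensity units. All 9 adhesion genes exceeded it on all 4 arrays, as did 9150 of the 17245 genes. Phf6 itself exceeded it on none, with 32.8 and 34.3 in the controls and 34.4 and 31.3 with PHF6 shRNA, so these data hold no check of the knockdown and every direction rests on the labels. The number of arrays limits the precision, and an exact test of a single value with 2 arrays against 2 cannot give a two-sided p below 0.333. Groups were therefore compared with limma's moderated test across all genes, and a gene was called at a Benjamini-Hochberg adjusted p under 0.05.

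The adhesion genes did not move as a block. Ncam2, L1cam, Ncam1 and Cntn1 read lower on each PHF6 shRNA array than on either control array, by 0.22 to 0.34 log2 units, and Cntnap2 read higher by 0.30. Nrcam, Nfasc, Cntn2 and Cntn4 had overlapping groups and differences between -0.05 and 0.12. None of the 9 was called (limma, adjusted p from 0.31 to 0.97), and neither was any of the 17245 genes (0.00%). The count over all genes depends on the fit, and with the duplicate number as a replicate block 909 genes were called, but no member. Without that block, 4 of the 9 stood at an unadjusted limma p under 0.05, against 10.8% of all genes. Of these 4, L1cam, Ncam1 and Ncam2 were lower and Cntnap2 higher. Over all genes, 7.52% were lower and 3.28% higher at that level. With 1 array left out the count of 4 became 2 (control duplicate 1 left out), 1 (control duplicate 2), 1 (PHF6 shRNA duplicate 1) or 3 (PHF6 shRNA duplicate 2). The groups did not overlap in 5 of the 9, against 37.8% of all genes. Toward lower signal the groups were apart in 4 of the 9 and in 21.7% of all genes. The median difference of the 9 was -0.05 against -0.0066 over all genes, while the median size without regard to sign was 0.22 against 0.08. The values over all genes take in 6428 that exceeded background on no array, and a median size matched for signal was not computed.

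**Figure D1:**
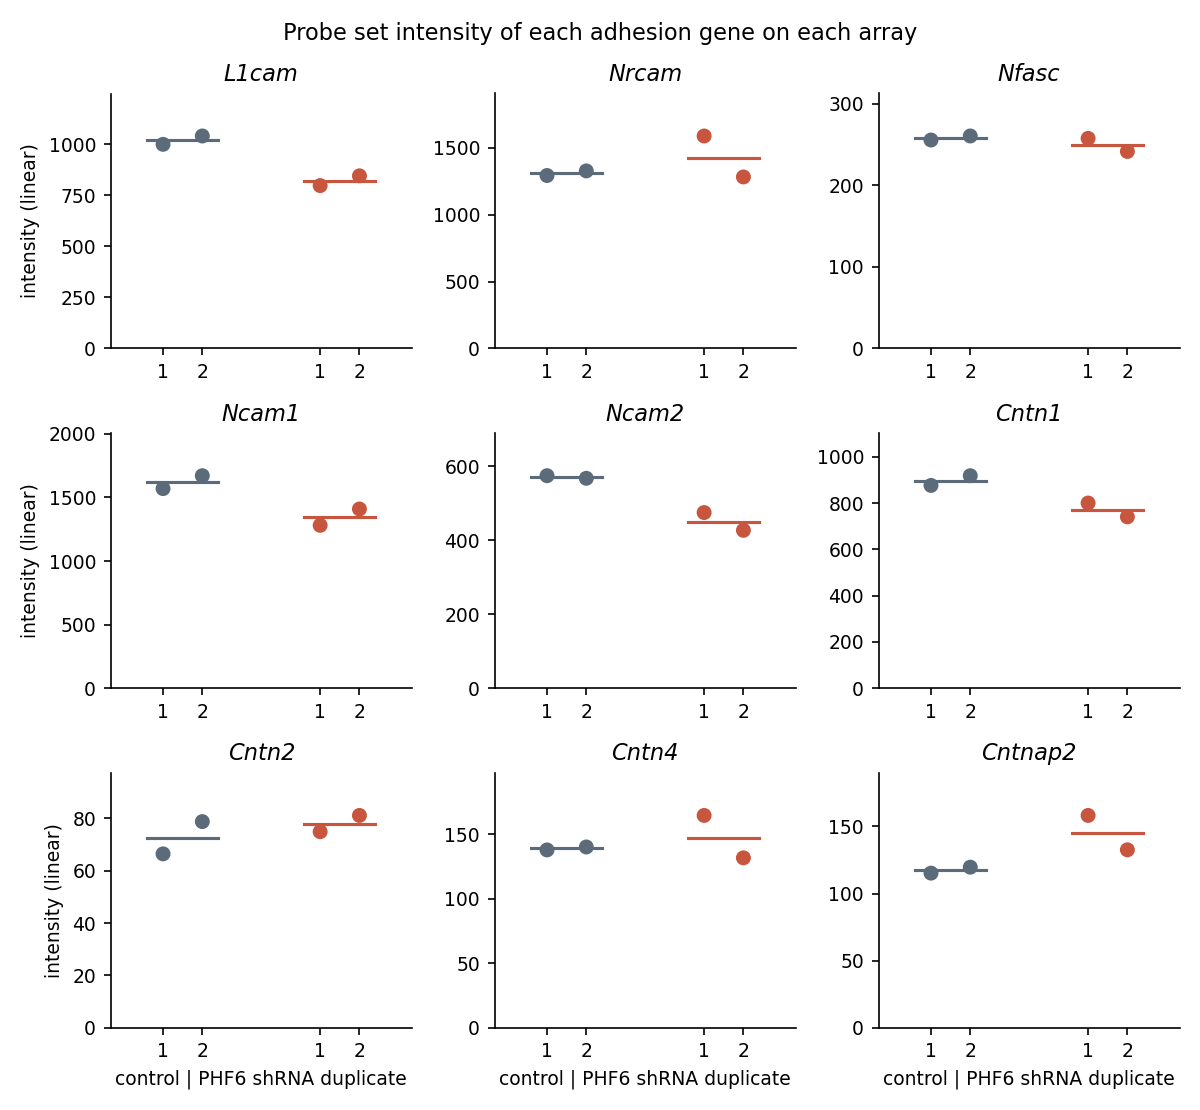
Linear probe set intensity (vertical axes, each from 0) of the 9 adhesion genes on the 4 arrays, with control duplicates in grey, PHF6 shRNA duplicates in red and a bar at the geometric mean of each pair. Both red points lie below both grey points for L1cam, Ncam1, Ncam2 and Cntn1 and above them for Cntnap2, and in Nrcam and Cntn4 the PHF6 shRNA duplicate 1 lies above the other 3 arrays.

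**Figure D2:**
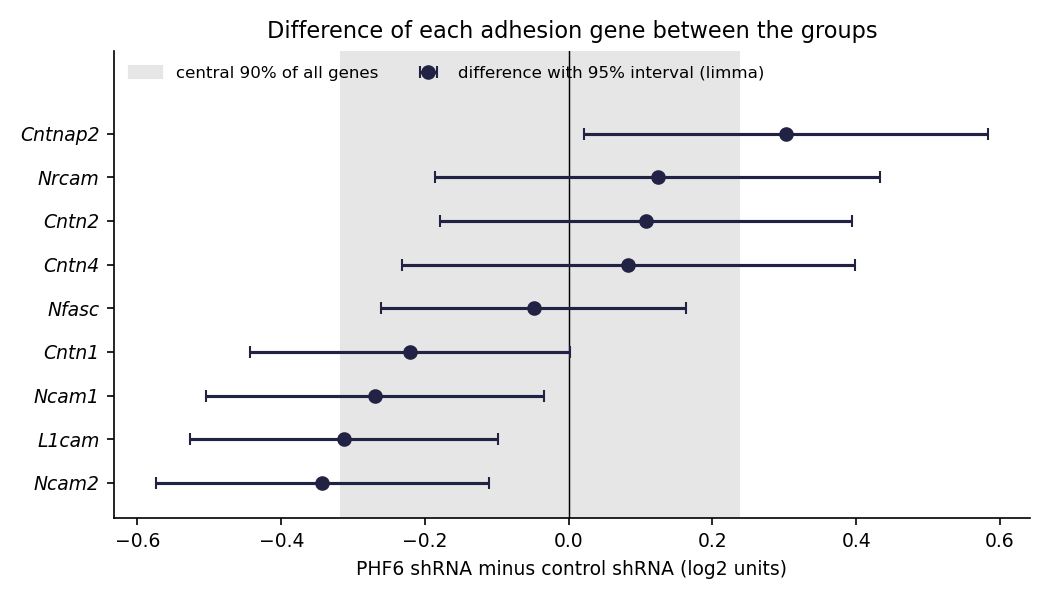
Difference between the groups in log2 units for each adhesion gene, with limma's 95% interval, over a grey band that holds the central 90% of differences of all genes. The intervals of Ncam2, L1cam and Ncam1 lie below 0 and that of Cntnap2 above it, before any adjustment for the number of genes, and only Ncam2 and Cntnap2 have a difference outside the band of -0.32 to 0.24.

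Among the L1 family, L1cam, the founding member, which guides long axons and whose human gene causes X-linked hydrocephalus when mutated, gave intensities of 1000.1 and 1041 in the controls and 798 and 846 with PHF6 shRNA. The groups were apart, and the gap between them was wider than the distance between either pair of duplicates. The means were 9.99 ± 0.04 and 9.68 ± 0.06 log2 units (SD, n = 2 each), a difference of -0.31 ± 0.09 (SE), or 1.24-fold lower, with a limma adjusted p of 0.31 (unadjusted 0.012). The 95% interval ran from -0.53 to -0.10, and it holds before adjustment only.

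Nrcam, which clusters sodium channels at nodes with neurofascin and is a receptor partner for semaphorin signals, read 1293 and 1328 in the controls and 1589 and 1283 with PHF6 shRNA. A single array, PHF6 shRNA duplicate 1, was high, and the other 3 lay within a narrow range. The difference was 0.12 ± 0.12 (SE; limma adjusted p = 0.89), and it was -0.03 without that array. Nfasc, neurofascin, which assembles the axon initial segment and the node, read 255 and 260.3 in the controls and 257 and 241 with PHF6 shRNA. Its groups overlapped and its difference of -0.05 ± 0.08 (limma adjusted p = 0.97) had an interval from -0.26 to 0.16, which leaves room for a modest change in either direction. The sign of the Nfasc difference turned under a further quantile normalization (0.0063) and cyclic loess (0.024).

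Both NCAM genes read lower. Ncam1, the neural cell adhesion molecule that carries polysialic acid, gave 1569.7 and 1671 in the controls and 1281 and 1409 with PHF6 shRNA. The lowest control array stood above the highest PHF6 shRNA array, and the difference was -0.27 ± 0.09 log2 units, or 1.21-fold lower (limma adjusted p = 0.41, unadjusted 0.032). Ncam2, a paralog known from the sorting of olfactory axons, gave 575 and 568 in the controls, which were nearly alike, and 475 and 427 with PHF6 shRNA. Its difference of -0.34 ± 0.09, or 1.27-fold lower, was the most negative of the 9, and its interval ran from -0.57 to -0.11 (limma adjusted p = 0.31, unadjusted 0.012). Of all genes, 4.04% had a difference at or below that of Ncam2, and 5.18% at or below that of L1cam. All genes take in the 6428 that exceeded background on no array, and a rank among genes of like signal was not computed.

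The contactins were split. Cntn1, also called F3, a partner of Nrcam, neurofascin and the receptor phosphatase Ptprz1, gave 877 and 919 in the controls and 801 and 741 with PHF6 shRNA. The groups did not overlap, and the difference of -0.22 ± 0.09 log2 units, or 1.17-fold lower, had an interval that just reached 0 (-0.44 to 0.0021; limma adjusted p = 0.47, unadjusted 0.052). Cntn2, also called TAG-1, which marks newly formed axons and binds L1 family proteins and Cntnap2, was the dimmest of the 9, at 66.4 and 78.7 in the controls and 74.9 and 81.1 with PHF6 shRNA. Here the control duplicates were further apart than the groups, and the difference was 0.11 ± 0.11 (limma adjusted p = 0.90), or -0.01 without control duplicate 1. Cntn4, known from the targeting of olfactory and visual axons, gave 138 and 140.1 in the controls and 165 and 132 with PHF6 shRNA, which lay on either side of the controls. Its difference was 0.08 ± 0.13 (limma adjusted p = 0.95), and -0.08 without PHF6 shRNA duplicate 1, the same array that was high for Nrcam.

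Cntnap2, or Caspr2, a neurexin-like partner of Cntn2 that gathers Kv1 potassium channels beside the node and whose human gene is linked to epilepsy and autism, was the only adhesion gene of the 9 whose arrays were all higher in the PHF6 shRNA group. It gave 115 and 119.7 in the controls and 158 and 133 with PHF6 shRNA. The difference was 0.30 ± 0.11 log2 units, or 1.23-fold higher, with an interval from 0.02 to 0.58 (limma adjusted p = 0.42, unadjusted 0.039). A difference at or below this one was found in 96.8% of all genes, a share that also takes in genes above background on no array. The difference was 0.18 with PHF6 shRNA duplicate 1 left out and 0.43 with PHF6 shRNA duplicate 2 left out.

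Signal and direction were related over the whole array, and 5 of the 9 adhesion genes, L1cam, Nrcam, Ncam1, Ncam2 and Cntn1, belonged to the brightest 10% of genes. In that class, with 1725 genes, the median difference was -0.07, 65.2% of genes were lower, 19.7% stood at an unadjusted limma p under 0.05, and the groups were apart in 53.2%, toward lower signal in 39.1%. Cyclic loess, which removes such a trend, brought the median of the class to -0.0075 and left L1cam at -0.26, Ncam2 at -0.28, Ncam1 at -0.22 and Cntn1 at -0.16, while Nrcam stood at 0.17 and Cntnap2 at 0.36. A further quantile normalization gave -0.27, -0.30, -0.23 and -0.20 for the 4 lower genes. Among all genes at an unadjusted p under 0.05, 69.7% were lower, against 58.0% after quantile normalization and 53.5% after cyclic loess. By signal, the share of genes at that limma p was 24.4% in the class of Nfasc and 23.9% in that of Cntn4 and Cntnap2.

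**Figure D3:**
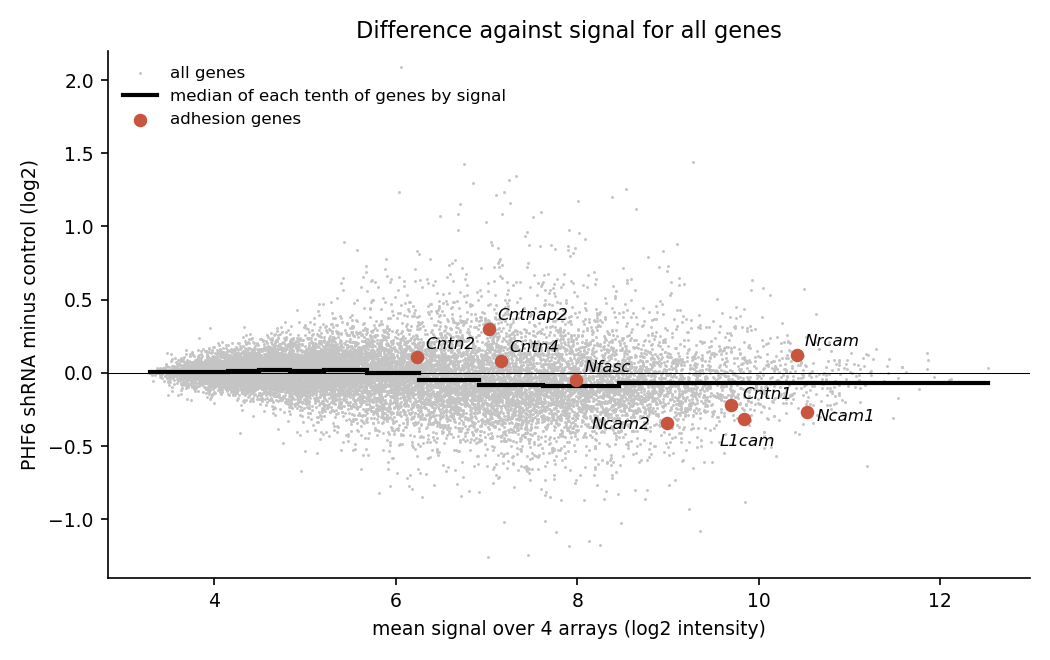
Difference between the groups (vertical axis, log2 units) against mean signal over the 4 arrays (horizontal axis, log2 intensity) for 17245 genes in grey, with black bars at the median of each of 10 classes of equal size by signal and the 9 adhesion genes in red. The medians fall below 0 in the brighter classes, and Ncam2, L1cam, Ncam1 and Cntn1 lie below their class median while Nrcam lies above it.

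**Figure D4:**
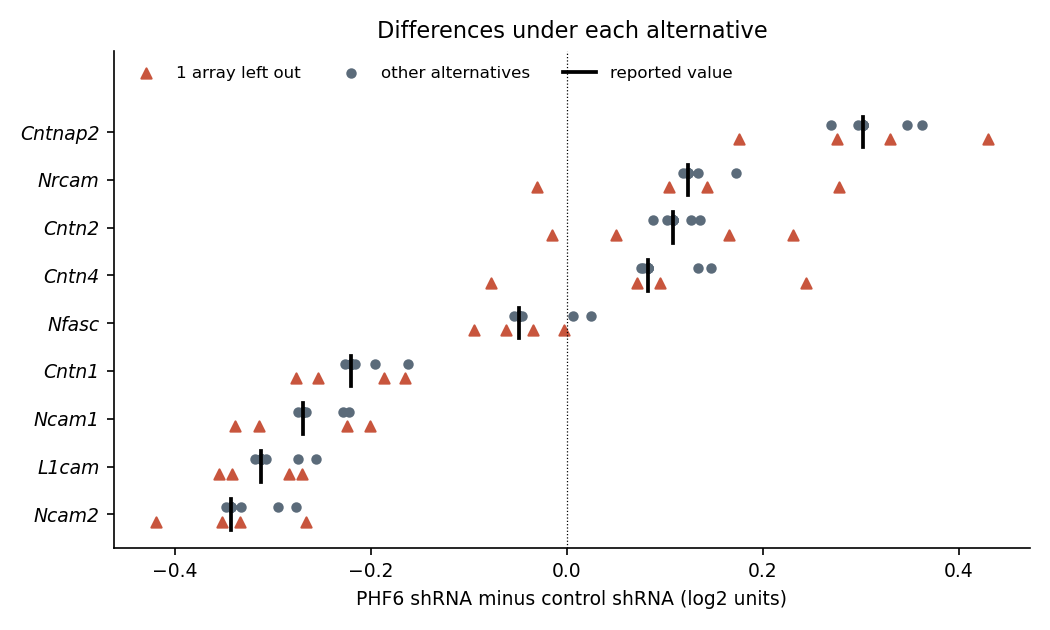
Difference between the groups in log2 units for each adhesion gene as reported (black bar), with 1 of the 4 arrays left out (red triangles) and under the other 11 alternatives (grey points), such as other scalings and filters. All points of L1cam, Ncam1, Ncam2 and Cntn1 lie below 0 and all of Cntnap2 above it, while those of Nrcam, Cntn2, Cntn4 and Nfasc lie on both sides.

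Markers of the cells in the culture were read beside these values. Neurons are the labelled cell type, and all 7 neuron markers exceeded background on all 4 arrays. Their summed intensity was 10241.5 and 10055 in the controls and 9125 and 9270.1 with PHF6 shRNA, lower in the group where L1cam, Ncam1, Ncam2 and Cntn1 were lower. By gene, 6 of these 7 were lower and 1 higher, with a median of -0.10 (-0.06 under cyclic loess). The groups were apart in 4, or 57.1%, against 53.2% of the brightest 10% of genes. The sum of 5 excitatory neuron markers did not separate the groups, at 2858 and 2596 against 3071 and 2712. Nor did that of 6 inhibitory neuron markers, at 784 and 629.5 against 815 and 676. By gene, the groups were apart in 3 of the 5 excitatory markers (60.0%, against 37.8% of all genes). These were Slc17a6 (-0.69 ± 0.11), Emx1 (0.34 ± 0.10) and Tbr1 (0.06 ± 0.08). They were apart in 3 of the 6 inhibitory markers (50.0%), Dlx1, Dlx2 and Dlx5, all higher, with Dlx1 and Dlx5 above background on no array. The 7 astrocyte markers summed to 687 and 1252 in the controls and 1003 and 1539 with PHF6 shRNA, higher in the second duplicate of each group. Of that sum Slc1a3, a glutamate transporter, gave 254 and 622 against 278 and 665. All 7 had differences above 0 (6 under cyclic loess), and the groups were apart for Slc1a2, another glutamate transporter (0.98 ± 0.20), and Aldoc, an aldolase (0.61 ± 0.18), neither of them called by limma (adjusted p = 0.24 and 0.35). Astrocytes and oligodendrocyte precursors can also express NCAM and contactins. Oligodendrocyte lineage markers gave 314 and 397 against 295 and 389, with Pdgfra and Mog above background on no array, and 5 of 6 microglial markers, Aif1, Itgam, Csf1r, P2ry12 and Ptprc, were above it on none. Of 4 endothelial and mural markers 3 were never above background, with sums of 109 and 106 against 118 and 113, and fibroblast markers, of which Dcn and Lum never were, summed to 253 and 239 against 261 and 251. The part of cell composition in the adhesion gene values was not tested, and in such cultures fewer cells of a type and less RNA per cell cannot be told apart.

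The sequences at the annotated starts were compared for genes that read lower together. RefSeq windows of 300 bases around an annotated gene start on the GRCr8 assembly, most of each lying before the start, were matched for 6 of the 10 genes (Chl1, Nfasc, Ncam2, Cntn1, Cntn2 and Cntn4), and no entry was matched for L1cam, Nrcam, Ncam1 and Cntnap2. The windows of Ncam2 and Cntn1 are shown because both genes read lower. That of Cntn4 is shown because it is a contactin whose window is rich in G and C like that of Ncam2, while its groups overlapped. The difference of Cntn4 was 0.08 ± 0.13, with an interval from -0.23 to 0.40, so it is not shown to be unchanged. Capitals mark the GC box GGGCGG on either strand, and each window is written along its gene's strand. They lie at chr11:33591573-33591872 (plus strand), chr7:125252060-125252359 (plus strand) and chr4:140180571-140180870 (plus strand).
Ncam2: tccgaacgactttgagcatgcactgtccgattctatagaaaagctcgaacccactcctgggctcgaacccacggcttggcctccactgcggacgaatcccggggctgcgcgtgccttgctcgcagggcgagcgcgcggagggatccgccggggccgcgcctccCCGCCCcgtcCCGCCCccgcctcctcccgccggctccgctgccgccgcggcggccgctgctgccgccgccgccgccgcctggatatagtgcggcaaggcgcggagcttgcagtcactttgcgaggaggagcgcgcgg
Cntn1: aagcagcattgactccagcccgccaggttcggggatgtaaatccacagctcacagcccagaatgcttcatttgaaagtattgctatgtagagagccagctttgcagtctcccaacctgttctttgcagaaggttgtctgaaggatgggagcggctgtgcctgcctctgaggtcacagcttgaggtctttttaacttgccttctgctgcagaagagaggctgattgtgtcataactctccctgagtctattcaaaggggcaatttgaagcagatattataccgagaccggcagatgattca
Cntn4: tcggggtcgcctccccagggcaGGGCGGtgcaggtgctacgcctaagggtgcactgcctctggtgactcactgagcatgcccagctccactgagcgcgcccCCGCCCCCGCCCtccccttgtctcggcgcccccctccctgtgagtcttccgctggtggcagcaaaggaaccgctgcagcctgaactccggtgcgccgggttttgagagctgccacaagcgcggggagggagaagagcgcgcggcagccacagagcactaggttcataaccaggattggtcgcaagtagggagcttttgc
The Ncam2 window held 72.7% G and C and 44 CpG dinucleotides, and 94.8% of the 33469 windows in the table had less G and C. The Cntn1 window held 49.0% and 5 CpG, below the median of all windows, 51.7% and 7. The Cntn4 window held 66.7% and 21 CpG. The GC box was found in Ncam2 (2 matches) and Cntn4 (3 matches), and in 33.1% of all windows. The E-box CANNTG was in Cntn1, Cntn2, Cntn4 and 1 of 2 Nfasc windows, and in 72.1% of all. CCAAT was in Cntn4 and Nfasc (37.5% of all), and TATAAA, the cyclic AMP element TGACGTCA and the NRF1 motif CGCATGCGC were in none of the 6 genes' windows (14.2%, 1.83% and 1.52% of all). Both strands were searched, and no motif of this set contains another. These matches describe letters in 1 window per annotated start and not binding. In the same annotation Cntn2 and Nfasc are direct neighbours, and Cntn3, Chl1, Cntn6 and Cntn4 follow each other with no other coding gene between them. Nfasc, Cntn2 and Cntn4 had overlapping groups, with intervals from -0.26 to 0.16, -0.18 to 0.39 and -0.23 to 0.40.

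Genes that work with these adhesion molecules were followed as lists. Over 6 lists, 73 of 79 partner genes were measured, of which 44 were lower and 29 higher, with a median of -0.06 log2 units. None was called by limma (smallest adjusted p = 0.23). At an unadjusted p under 0.05 stood 16 of the 73, with 10 lower and 6 higher, or 21.9% against 10.8% of all genes, and the groups did not overlap in 34, or 46.6%, against 37.8% of all genes and 53.2% of the brightest 10%. Of the partners 61 were above background on all 4 arrays, and in the brightest 10% of all genes 19.7% stood at that level. Many genes of the lists lay just below that class, in classes 8 and 9 of the 10 by signal, counted from the dimmest. There 23.9% and 24.4% of genes stood at that level, and the groups were apart in 49.8% and 52.3%. An excess over genes of like signal was not tested.

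The ankyrin, spectrin and band 4.1 genes, which anchor the L1 family to the membrane skeleton, showed small differences. Lower values were found in 7 of the 10 measured, and the median was -0.10 (-0.03 under cyclic loess), and 0 had an unadjusted limma p under 0.05. Ank3, the ankyrin of the axon initial segment, differed by -0.10 and Ank2 by -0.10. The groups were apart for Epb41l1, a neuronal band 4.1 protein (201 and 233 against 171 and 194, -0.25 ± 0.12), and for Sptan1, the alpha spectrin (611 and 653 against 581 and 583, -0.12 ± 0.08).

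Ion channels that L1 family proteins and Cntnap2 help to place gave the widest values. Of 10 measured, 7 were lower and 3 higher, with a median of -0.19. An unadjusted limma p under 0.05 was found for 5, 4 of them lower, or 50.0% against 10.8% of all genes. Most channels lay below the brightest 10% by signal, in classes 7, 8 and 9. In these classes 17.1%, 23.9% and 24.4% of genes stood at that p, and in the brightest 10% it was 19.7%. Kcna1, the Kv1.1 channel that sits beside the node with Cntnap2, read 291 and 257 in the controls and 772 and 455 with PHF6 shRNA, a difference of 1.12 ± 0.25. The PHF6 shRNA duplicates were far apart but both above the controls, and the direction was that of Cntnap2. The other Kv1 channel genes of the list went both ways, with Kcna2 at 0.14 and Kcna4 at -0.20, both with overlapping groups. Kcnq3, a subunit of the M-type channel held by ankyrin at the initial segment, was at 102.7 and 93.1 against 57.0 and 65.0 (-0.68 ± 0.11). Scn3a, a sodium channel of embryonic neurons, differed by -0.81 ± 0.18, and a second probe set of it by -0.77. Scn2b, a sodium channel beta subunit with an immunoglobulin domain, differed by -0.35 ± 0.08, and Scn8a, the main sodium channel of mature nodes, by -0.30 ± 0.12. Kcnab2, the Kv1 beta subunit, differed by -0.17 ± 0.09 with its groups apart. The adjusted limma p of Kcna1, Kcnq3, Scn3a, Scn2b, Scn8a and Kcnab2 ran from 0.23 to 0.61.

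Ligands and co-receptors went both ways, with 14 of 23 lower and 9 higher and a median of -0.05. That median was 0.0030 after a further quantile normalization and -0.00017 under cyclic loess. Itgb1, the beta-1 integrin that binds L1, read 267 and 307 in the controls and 424 and 392 with PHF6 shRNA, a difference of 0.51 ± 0.11. Nrp1, the semaphorin receptor that forms a complex with L1, read 172 and 152 in the controls and 122 and 107 with PHF6 shRNA, a difference of -0.50 ± 0.11, so it differed in the direction of L1cam. Gfra1, a GDNF receptor that uses NCAM as a signalling partner, differed by 0.31 ± 0.10. These 3 were the genes of the list at an unadjusted limma p under 0.05, or 13.0% against 10.8% of all genes and 19.7% of the brightest 10%, and none was called. Sema3a, App and Prnp, an axon repellent, the amyloid precursor and the prion protein, had groups apart with differences of -0.27 ± 0.15, -0.15 ± 0.09 and -0.21 ± 0.15. Prnp read 169.6 and 225.2 in the controls and 168.6 and 169.2 with PHF6 shRNA, so its groups were barely apart, and duplicate 1 differed by only -0.0084. In the list the groups were apart in 8 of 23 genes, or 34.8%, against 37.8% of all genes. Ptprz1, the phosphatase ligand of Cntn1, read 577 and 1028 in the controls and 531 and 1109 with PHF6 shRNA. Its difference of -0.0055 ± 0.42 had an interval from -1.05 to 1.04, so a change of either sign is not excluded. Fgfr1, a growth factor receptor that NCAM and L1 engage, differed by -0.05 ± 0.10.

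Of the genes of signalling, trafficking and shedding 11 of 18 were lower, the median was -0.11, and 6 had an unadjusted limma p under 0.05, 4 lower and 2 higher, which is 33.3% against the same 10.8% and 19.7%. Bace1, a protease that cleaves L1 and Chl1, read 336 and 303 in the controls and 226 and 245 with PHF6 shRNA, a difference of -0.44 ± 0.10. Its relative Bace2 went the other way, at 34.2 and 34.4 against 64.9 and 44.5. The control arrays lay below background, and the fold is therefore not exact. Bace2 met the signal filter for naming, background exceeded on at least 2 arrays, only through the PHF6 shRNA arrays, and the count of 6 includes it. Map2k1, the MEK1 kinase downstream of L1 and NCAM, differed by 0.37 ± 0.08. Pak1, a kinase of the growth cone cytoskeleton, Ap2m1, an adaptor for endocytosis of L1, and Gap43, a growth cone protein downstream of NCAM, differed by -0.31 ± 0.09, -0.24 ± 0.08 and -0.24 ± 0.09. The other named shedding proteases, Adam10 and Adam17, differed by 0.03 and -0.03.

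Both enzymes known to add polysialic acid to NCAM had values below 0. St8sia2, the main such enzyme of the embryonic brain, differed by -0.21 with overlapping groups, and St8sia4 by -0.17 ± 0.09, with 66.1 and 71.8 in the controls and 59.2 and 63.1 with PHF6 shRNA. Their relative St8sia3, which makes shorter sialic acid chains, differed by 0.22 ± 0.09, with 535 and 533 against 595 and 652, and had an unadjusted limma p of 0.0498 (adjusted 0.46).

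The remaining contactins and contactin-associated proteins were dimmer. Of 9 measured, 4 exceeded background on all 4 arrays and 3 on none, 6 were higher and 3 lower, and the median was 0.08. The groups were apart in 5 of the 9, or 55.6% against 37.8% of all genes, and 11.1% against 10.8% had an unadjusted limma p under 0.05. Cntn3 differed by 0.16 ± 0.09 and Cntnap3 by 0.21 ± 0.11, both with the groups apart. Cntn3 lay close to background, at 37.5 and 38.5 against 43.7 and 41.0, and exceeded it on 3 of the 4 arrays. The 6 probe sets annotated to Cntnap3 gave values from -0.07 to 0.38. Cntnap5b, at -0.48 ± 0.12 the only gene of this list with an unadjusted limma p under 0.05, was above background on no array and is named after its value was seen. Cntnap1, the paralog of Cntnap2 that acts with Cntn1 beside the node, differed by 0.20 and Cntn5 by 0.25, both with overlapping groups.

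Other immunoglobulin adhesion genes gave a comparison outside the L1, NCAM and contactin families. Of 39 listed, 36 were measured, all above background on all 4 arrays, with 17 lower and 19 higher and a median of 0.04, or 0.10 under cyclic loess. None was called, 8 had an unadjusted limma p under 0.05 (5 lower and 3 higher) and the groups were apart in 17. These shares, 22.2% and 47.2%, stand against 10.8% and 37.8% of all genes and 19.7% and 53.2% of the brightest 10%. Many of the 36 lay in signal classes 8 and 9, where 23.9% and 24.4% of genes stood at that p. The groups were apart in 49.8% and 52.3% of genes there. Alcam, an adhesion molecule of growing axons, read 214 and 246 in the controls and 404 and 338 with PHF6 shRNA, a difference of 0.69 ± 0.13. Ntm, neurotrimin, a lipid-anchored member of the IgLON family, read 696 and 702 against 412 and 516, a difference of -0.60 ± 0.13. Thy1, a small lipid-anchored surface protein of neurons, differed by -0.64 ± 0.22, Dscaml1, a homophilic adhesion molecule, by 0.43 ± 0.11, and Igsf9 and Cadm4 by -0.32 ± 0.09 and -0.33 ± 0.10. The adjusted limma p of these 6 ran from 0.24 to 0.39. A difference between this list and the L1, NCAM and contactin genes was not tested.

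**Figure D5:**
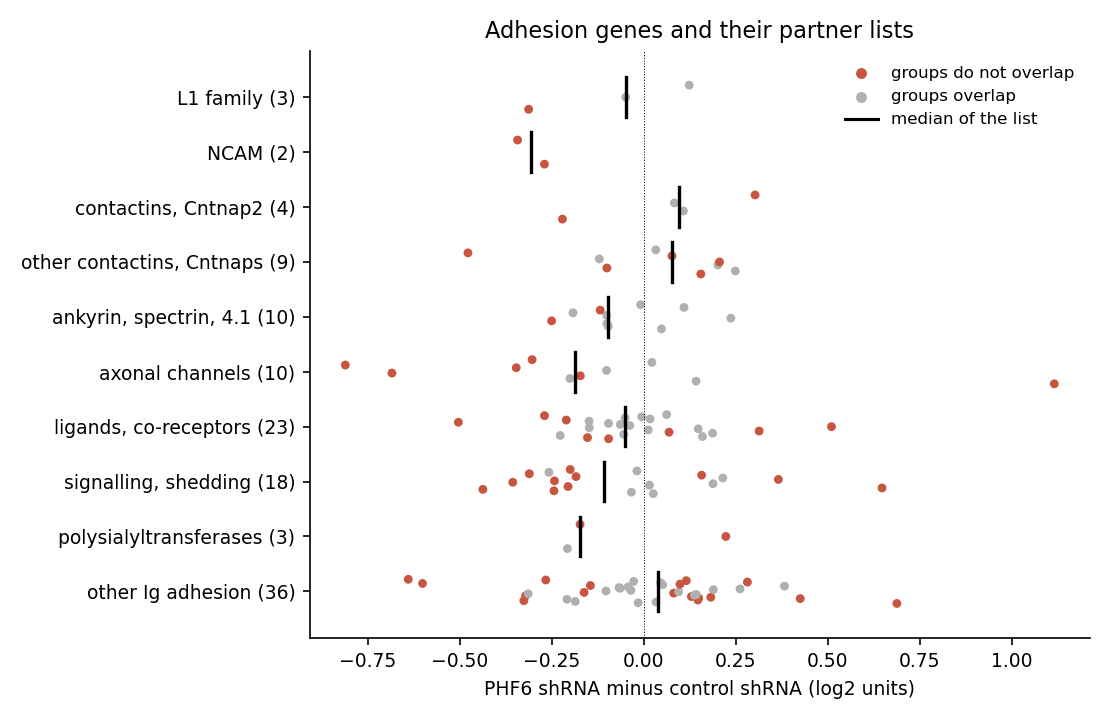
Difference between the groups in log2 units for every measured gene of the adhesion families, the 6 partner lists and the other immunoglobulin adhesion genes, with the number measured in brackets, red where the 2 control and 2 PHF6 shRNA arrays do not overlap, and a black bar at each list's median. Points lie on both sides of 0 in every row except NCAM, and the axonal channels have the widest range, from -0.81 to 1.12.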

How the data were processed

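Trizol-extracted total RNA was made into biotin-labelled whole-transcript target for 1-colour Affymetrix arrays, per the labels' protocols. The deposited values are probe set intensities that the authors made with RMA, per the submitters' processing notes, which name no settings. RMA subtracts background, equalises arrays by quantiles and compresses dim differences. Since these values are linear (8.57 to 6121), they were put on a log2 scale first. Of 29214 rows, 18644 carry 1 gene symbol, 962 several and 9608 none in the annotation used here. Symbols were updated by gene identifier to GRCr8 for 18460 rows, and the brightest probe set stood for each of 17245 genes.

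Groups were taken from the sample titles and compared by lmFit and eBayes of limma 3.58.1 (R 4.3.3), 2-sided, without filter or covariate, and p-values were adjusted over all genes by Benjamini-Hochberg, with 0.05 as threshold. The fit was tested on simulated data with independent noise and differences larger than those of the members, so that test does not cover differences of their size. All members were named, and of each partner list up to 6 genes with the smallest p, among those with groups apart and above background on at least 2 arrays. The other genes named were added after their values were seen. Members and lists were chosen with earlier results of these data known. Any 2 arrays had at most 11 identical values.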

Additional observations from a re-analysis of the deposited data

How the results depend on the processing

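No member was called under any of the 15 alternatives, which were 3 scalings (cyclic loess, another quantile normalization, median centring), 2 variance priors, 2 filters on dim genes, the mean of probe sets, all rows, a pseudocount of 16, the duplicate number as a replicate block and leaving out each of the 4 arrays. L1cam stayed between -0.35 and -0.26, Ncam1 between -0.34 and -0.20, Ncam2 between -0.42 and -0.27, Cntn1 between -0.28 and -0.16 and Cntnap2 between 0.18 and 0.43 over these 15. Signs turned for Nfasc under quantile normalization (0.0063) and cyclic loess (0.024), and with arrays left out for Nrcam (-0.031 to 0.28), Cntn2 (-0.015 to 0.23) and Cntn4 (-0.077 to 0.24); the cause was not tested. With an array left out, the genes called ran from 0 to 90, the partner genes called from 0 to 2 and the members at an unadjusted p under 0.05, a count added after seeing the data, from 1 to 3. In such fits the lone array of a group is assumed to vary like the others.

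A fit with the number as replicate block called 909 genes, 605 lower and 304 higher, and 10 of 73 partner genes, but no member (Ncam2 adjusted p = 0.054, L1cam 0.062, Ncam1 0.094). The partner genes were Kcna1, Scn3a, Kcnq3, Scn2b, Nrp1, Itgb1, Bace1, Bace2, Map2k1 and Cntnap5b, and Alcam, Ntm, Dscaml1 and Thy1 were called among the other immunoglobulin adhesion genes. Of these, Bace2 exceeded background only on the PHF6 shRNA arrays and Cntnap5b on no array. The sample descriptions repeat the number after the letters exp, but the labels do not say that it marks a shared culture, batch or day. The difference of duplicate 2 minus duplicate 1 correlated between the groups across genes (r = 0.57, 17245 genes, which are not independent replicates), and 684 genes differed by number in that fit. No depth is defined for arrays. All members exceeded background on every array.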

Other observations

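The duplicates lay further apart in the PHF6 shRNA group than in the control group for 8 of the 9 adhesion genes, Cntn2 being the exception, against 49.0% of the 9150 genes above background on all 4 arrays. The control duplicates of Ncam2, Cntn4 and Nfasc had SDs of 0.01, 0.02 and 0.02 log2 units, and those of the PHF6 shRNA duplicates were 0.11, 0.23 and 0.07. PHF6 shRNA duplicate 1 was the highest of the 4 arrays for Nrcam, Cntn4 and Cntnap2, which is 3 of 9, against 20.0% of those genes. An SD of 2 arrays rests on a single gap, and these counts were made after the values were seen.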
